A study of Mus musculus and other sequences with 2 samples.

Results

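The miR-17-92 cluster, a group of miRNAs cut from 1 primary transcript, was represented by 6 of the 750 miRNA assays of a TaqMan rodent array. The members were chosen by name as the mouse assays for miR-17, miR-18a, miR-19a, miR-19b, miR-20a and miR-92 that carry no #, the mark of the minor arm of a hairpin, and all 6 were on card A of the 2 cards. The array was run once on media conditioned by 25 CD1 mouse blastocysts, cultured between 99 and 116 h after hCG, and once on blank media kept for the same 17 h without blastocysts. The labels call the embryos blastocysts, and by the study's methods they were compacted or cavitating morulae when this culture began. Both were 8 μL microdroplets of BSA-free KSOM with 0.1% polyvinylacetate, as the labels name it, of which 6 μL was taken, and the embryos came from superovulated females, 3 weeks old by the labels, mated with CD1 males. The study's methods give a range of ages that starts there. With 1 pooled culture per condition there was no replicate, no test between media was possible, and each value below is the Ct of 1 well. The Ct is the PCR cycle at which fluorescence crosses a threshold, so that a lower Ct stands for more template. A sequence was called detected at a Ct below 35, and an undetermined Ct, meaning no crossing within 40 cycles, counted as not detected. The height of the fluorescence signal, a further criterion of the study, could not be applied to the Ct tables used here. Detection here is therefore more inclusive, in blank media too. In such media, the number of embryos that released a sequence and the amount that each released cannot be told apart.

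The cluster is transcribed as the non-coding host gene Mir17hg, which MYC and E2F factors are known to activate, and it is known for its roles in proliferation and survival and as an oncogene in lymphoma. Its mature products repress mRNAs through the seed at bases 2 to 8, and they fall into seed families with different preferred targets: miR-17 and miR-20a are known to repress Cdkn1a and Tgfbr2, miR-18a to repress connective tissue growth factor, and miR-92a to repress integrin alpha 5. Loss of the cluster in mice is known to be lethal around birth, with defects of the heart, lung and B cells. Mammals hold a pair of related clusters, miR-106b-25 and miR-106a-363, whose members share most of these seeds.

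All 6 members were matched by name to mature sequences in RefSeq (assembly GRCm38.p6). The hairpins lie on the plus strand within 836 bases at chr14:115043671-115044506, in the order Mir17, Mir18, Mir19a, Mir20a, Mir19b-1 and Mir92-1. The mature sequences are shown because the comparisons that follow group the assays by seed. They are given from 5′ to 3′ in that order, with the seed in capitals:
mmu-miR-17: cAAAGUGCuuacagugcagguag
mmu-miR-18a: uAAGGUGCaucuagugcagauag
mmu-miR-19a: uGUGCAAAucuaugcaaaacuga
mmu-miR-20a: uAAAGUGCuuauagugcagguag
mmu-miR-19b: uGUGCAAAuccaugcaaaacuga
mmu-miR-92: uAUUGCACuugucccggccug

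The mature sequence of miR-17 lies at chr14:115043684-115043706, that of miR-18a at chr14:115043867-115043889, that of miR-19a at chr14:115044048-115044070 and that of miR-20a at chr14:115044183-115044205. The last members, miR-19b at chr14:115044358-115044380 and miR-92a at chr14:115044476-115044496, are also encoded with identical mature sequence in the miR-106a-363 cluster, by Mir19b-2 at chrX:52741991-52742013 and Mir92-2 at chrX:52741854-52741874, both on the minus strand. A Ct of these 2 assays therefore cannot be assigned to either cluster.

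In conditioned media, 5 of the 6 members were detected, compared with 37.3% of all miRNA assays. In blank media, 3 of the 6 were detected, compared with 29.1%. Both members of the miR-19 family were detected in conditioned media only, 2 of 6 where the array as a whole had 13.9%, while miR-17, miR-20a and miR-92 were detected in both media and miR-18a in neither. Among all assays of card A, 39.8% were detected in conditioned media, 32.6% in blank media and 14.7% in conditioned media only.

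The miR-19 family was the part of the cluster detected in conditioned media only. With embryos, mmu-miR-19b crossed the threshold at a Ct of 23.9, and the well of blank media was undetermined. Its family member mmu-miR-19a crossed at a Ct of 28.2 with embryos, and its blank well was also undetermined. Since the run ended at 40 cycles, the blank wells were at least 16.1 cycles later for mmu-miR-19b and at least 11.8 cycles later for mmu-miR-19a. The mature sequences of miR-19a and miR-19b differ by a single base, U11C with positions counted from the 5′ end and miR-19a given first, and their Ct differed by 4.31 cycles in conditioned media.

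Of the miR-17 seed family, which is known to restrain the cell cycle inhibitor Cdkn1a, mmu-miR-17 had the earliest Ct of the 6 members in either medium and the smallest difference among the 3 with a Ct in both. Its Ct was 19.2 with embryos and 19.3 without, a difference (conditioned minus blank, here and below) of -0.16 cycles. The Ct of mmu-miR-20a was 24.2 with embryos and 26.3 without, a difference of -2.10 cycles, which would be 4.27-fold if each cycle doubled the template. Relative to the small nuclear RNA U6 of the same card, the direction of both assays turned, to 3.92 cycles for mmu-miR-17 and 1.99 for mmu-miR-20a. By Ct alone, both sequences were thus detected without embryos, and whether these wells would have met the study's signal criterion cannot be told. The wells of mmu-miR-17 were among many early wells: 79 conditioned and 81 blank wells had a Ct as early as or earlier than its own, the assay itself included. Of the 79 conditioned wells, 75.9% belonged to assays also detected in blank media, compared with 176 of all 280 assays detected in conditioned media. For the 81 blank wells the share also detected in conditioned media was 81.5%, compared with 176 of all 218 detected in blank media. The mature sequences of miR-17 and miR-20a differ by 2 bases, C1U and C12U with miR-17 first, and their Ct differed by 5.06 cycles with embryos and by 6.99 cycles without.

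The remaining detected member, mmu-miR-92, had the largest difference among the members with a Ct in both media. Its Ct was 22.1 with embryos and 27.9 without, a difference of -5.73 cycles, or 53.1-fold if each cycle doubled the template. The difference was -1.65 cycles relative to the mean of the U6 wells of the card and -0.64 relative to their median. It ranked 14 by this difference among the 176 miRNA assays detected in both media, where rank 1 is the assay earliest in conditioned relative to blank media. A difference of more than 5 cycles in this direction was found for 1 of the 3 members detected in both media, and for 10.8% of the 176, whereas relative to U6 mmu-miR-92 was not past 5 cycles.

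The assay mmu-miR-18a was undetermined in both media. The only other mouse assay with its seed, mmu-miR-18b of the miR-106a-363 cluster, was undetermined in both media as well, so that neither mouse assay of the miR-18 seed family that was matched by sequence had a Ct.

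**Figure D1:**
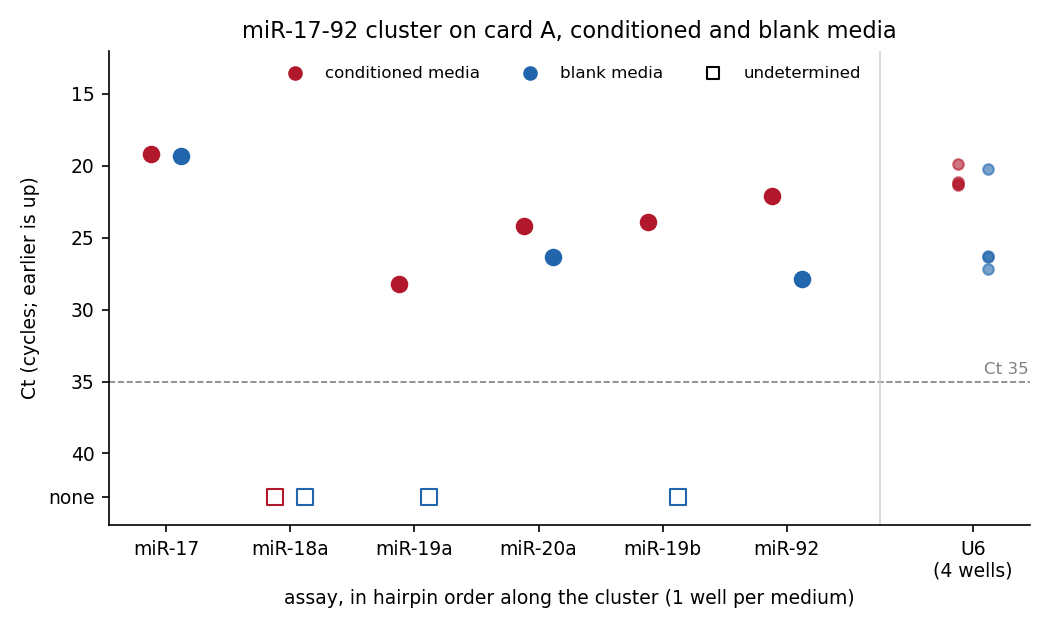
Ct of each cluster member in conditioned media (red) and blank media (blue), 1 well per medium, with an inverted axis in cycles and undetermined wells as open squares; the 4 U6 wells of card A in each medium are at the right. mmu-miR-19a and mmu-miR-19b have a Ct in conditioned media only, mmu-miR-17 is at 19.2 and 19.3, and mmu-miR-92 shows a difference of -5.73 cycles, the largest among the 3 members with a Ct in both media.

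Error between wells could be measured with U6 alone, which was present in 4 wells per card. On card A its Ct in conditioned media was 19.9, 21.1, 21.3 and 21.3, an SD of 0.68, or of 0.087 over the 3 later wells. In blank media it was 20.2, 26.3, 26.3 and 27.1, an SD of 3.22, or of 0.49 over the 3 later wells. The differences of mmu-miR-17, -0.16, and mmu-miR-20a, -2.10, were smaller in size than the SD of all 4 blank wells, 3.22. That of mmu-miR-92, -5.73, was larger. Against the SD of the 3 later blank wells, 0.49, only mmu-miR-17 was smaller. These SDs cover the error of wells of 1 lysate and not that between cultures, so that whether the differences of mmu-miR-17, mmu-miR-20a and mmu-miR-92 exceed the spread between cultures could not be determined. Error between assays was larger in conditioned media. In blank media it rested on 2 pairs, and the smaller of their gaps was below the SD of all 4 U6 wells. Of 26 names with a pair of assays each, 10 had only 1 assay of the pair detected in conditioned media and 5 in blank media. In the 6 pairs with both assays detected in conditioned media, the median gap was 3.74 cycles (range 1.25 to 7.42), and in the 2 such pairs of blank media it was 8.45 cycles (range 2.18 to 14.7). No member of the cluster had a second assay.

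In order of their Ct in conditioned media the members were mmu-miR-17, mmu-miR-92, mmu-miR-19b, mmu-miR-20a and mmu-miR-19a. Neighbours in this order were 2.96, 1.79, 0.30 and 4.01 cycles apart. The gap between mmu-miR-19b and mmu-miR-20a was smaller than the SD of all 4 U6 wells in conditioned media, though larger than that of the 3 later wells, and only the gap between mmu-miR-20a and mmu-miR-19a exceeded the median difference between assays of 1 name. In blank media the order was mmu-miR-17, mmu-miR-20a and mmu-miR-92, with gaps of 6.99 and 1.54 cycles, both smaller than the median gap between assays of 1 name in that medium. Assays differ in efficiency, so that these are orders of Ct and not of amounts.

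The median Ct of the 5 detected members was 23.9 in conditioned media, where the 280 detected assays had a median of 25.5. In blank media, the 3 detected members had a median of 26.3, where the 218 detected assays had 22.8. By rank of Ct among the detected assays of conditioned media, the members were at 79 for mmu-miR-17, 101 for mmu-miR-92, 120 for mmu-miR-19b, 125 for mmu-miR-20a and 191 for mmu-miR-19a. In blank media, mmu-miR-17 ranked 81, mmu-miR-20a 135 and mmu-miR-92 152.

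**Figure D2:**
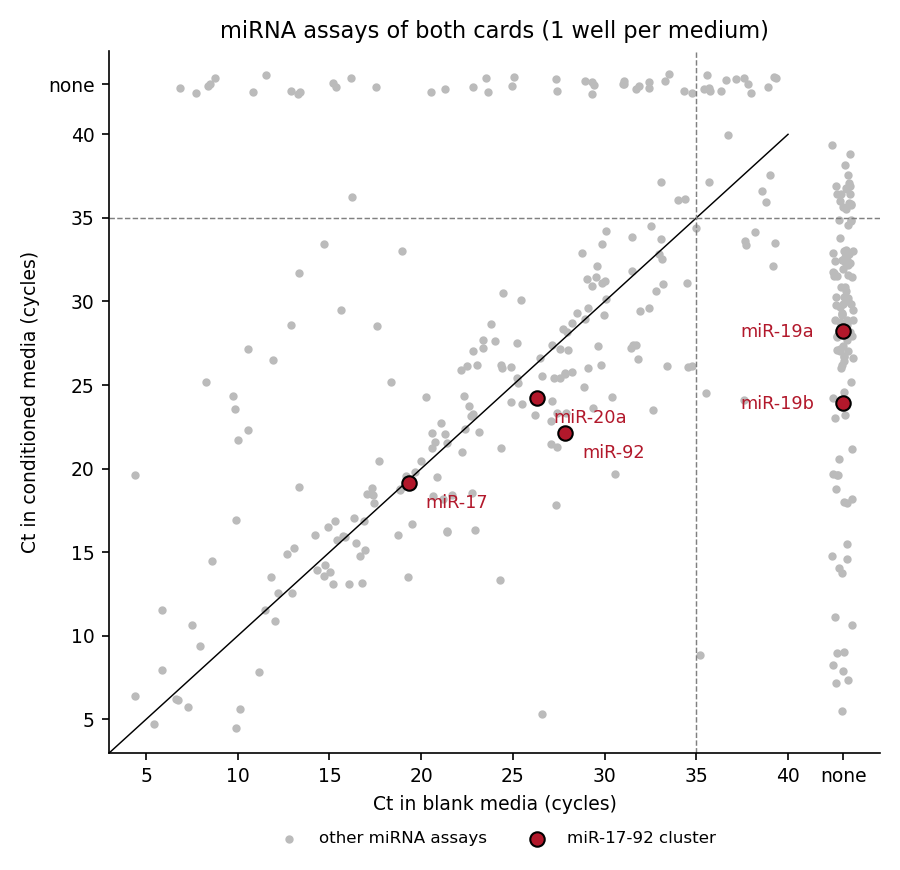
Ct in conditioned media (vertical) against Ct in blank media (horizontal), in cycles, for the miRNA assays of both cards with a Ct in at least 1 medium (grey) and for the detected cluster members (red); wells without a Ct are placed at "none" with a small random offset to separate the points, the dashed lines mark a Ct of 35 and the solid line equal Ct. mmu-miR-17 lies on the line of equal Ct at 19.2 and 19.3, mmu-miR-20a and mmu-miR-92 lie below it (relative to U6, mmu-miR-20a turns to 1.99), and both miR-19 assays lie in the column without a blank Ct.

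All 3 members detected in both media had an earlier Ct in conditioned media, with a median difference of -2.10 cycles, although relative to U6 only mmu-miR-92 did. Without U6 subtracted, only the difference of mmu-miR-92 was larger in size than the SD of all 4 U6 blank wells on card A, 3.22. Over the 176 assays detected in both media, 48.3% were earlier in conditioned media and the median difference was 0.05, and on card A these were 52.1% of 94 assays and -0.12. For U6 on card A, the mean Ct was 20.9 with embryos and 25.0 without, a difference of -4.08 cycles. With U6 of card A subtracted, which moves every assay of the card alike, the direction turned for mmu-miR-17 and mmu-miR-20a, and mmu-miR-92 alone stayed earlier. The lower quartile of the 94 differences on card A was -3.04 cycles before this step, short of the U6 difference. Most of these 94 assays were therefore later in conditioned media relative to U6, and their exact share was not counted.

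The other arms of the cluster hairpins had 7 assays, 5 with a mouse name and 2 with a rat name. All 5 mouse assays, mmu-miR-17#, mmu-miR-18a#, mmu-miR-19a#, mmu-miR-20a# and mmu-miR-92a#, were undetermined in both media, as was rno-miR-20a#. Only rno-miR-17-3p had a Ct, of 13.1 with embryos and 16.8 without, earlier than any of the 6 members in either medium. This assay is named for the arm that mmu-miR-17# also measures, which had no Ct in either well.

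The paralogue clusters had 14 assays, and the mature sequences of their detected major arms with a mouse name, printed for comparison with the members above, were these:
mmu-miR-106a: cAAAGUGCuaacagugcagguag
mmu-miR-106b: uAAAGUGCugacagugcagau
mmu-miR-363: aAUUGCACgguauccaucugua
mmu-miR-25: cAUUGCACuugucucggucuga

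Of the miR-106b-25 cluster, which lies in an intron of Mcm7, mmu-miR-106b had a Ct of 27.3 with embryos and 29.6 without. The assay mmu-miR-25 had a Ct of 29.4 and 31.9 in the same order. The third member, mmu-miR-93, had a Ct of 38.2 with embryos, beyond the limit of detection, and none without, while its minor arm mmu-miR-93# had a Ct of 28.9 with embryos and none without. The assays mmu-miR-106b# and rno-miR-25# were undetermined in both. Both detected major arms of this cluster were thus later than mmu-miR-17, mmu-miR-20a and mmu-miR-92 in each medium.

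Of the miR-106a-363 cluster, which lies on the X chromosome, mmu-miR-106a had a Ct of 13.5 with embryos and 19.3 without, and mmu-miR-363 had a Ct of 24.0 and 27.1. The mature miR-106a differs from miR-17 by a single base, U10A with miR-17 first, and in blank media its Ct was 0.053 cycles from that of mmu-miR-17, whereas in conditioned media they were 5.67 cycles apart, miR-106a being the earlier. Whether either assay also reads the other sequence was not tested. The assay mmu-miR-20b was undetermined in both media, while rno-miR-20b had a Ct of 18.2 with embryos and 21.2 without. Of the minor arms, mmu-miR-20b# and mmu-miR-363# were undetermined in both media, and rno-miR-20b-3p crossed at 11.5 in blank media alone.

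Over the 14 assays of the paralogue clusters, 6 were detected in conditioned media, 6 in blank media and 1 in conditioned media only, where the array had 37.3%, 29.1% and 13.9%. All 5 of them that were detected in both media were earlier in conditioned media, with differences from -5.77 to -2.29 cycles. Relative to U6, on which scale most assays of card A were later, only mmu-miR-106a was earlier. With the 3 members and rno-miR-17-3p, 9 assays of the 3 clusters were detected in both media. All 9 were earlier in conditioned media, compared with 48.3% on the array. Relative to U6, only 2 of these 9 were earlier, mmu-miR-92 and mmu-miR-106a. Subtracting U6 moves every assay of a card alike. On card A the U6 difference, -4.08 cycles, lies beyond the lower quartile of all differences, -3.04, so most of its assays were later on that scale. The share of the whole array on that scale was not counted, so the 2 of 9 cannot be set against it. After centring on the card median, which leaves about as many assays of a card earlier as later, all 9 were earlier. Of these, mmu-miR-17 was at -0.047 cycles, smaller in size than any SD of the U6 wells on card A. The near-identical sequences and shared hairpins among these assays mean that they are not independent measurements.

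By seed, the family of miR-17 had 6 mouse assays, mmu-miR-17, mmu-miR-20a, mmu-miR-106a, mmu-miR-106b, mmu-miR-93 and mmu-miR-20b, of which the same 4 were detected in both media and none in conditioned media only. The miR-19 seed had its 2 assays in conditioned media only. The miR-92 seed had 5 assays, all of them detected in both media. On the array, 176 of 750 assays were detected in both media and 13.9% in conditioned media only. Of these 5, the 3 that belong to the clusters, mmu-miR-92, mmu-miR-363 and mmu-miR-25, were earlier in conditioned media. Relative to U6 only mmu-miR-92 was, on a scale where most assays of card A were later. The other two come from elsewhere in the genome and were later in conditioned media. These were mmu-miR-367, of the pluripotency-associated miR-302-367 cluster, with a Ct of 23.8 with embryos and 22.6 without, and mmu-miR-32, an intronic miRNA, with 32.9 and 28.8. After centring on the card median the differences of these 2 assays were 1.29 and 4.24 cycles, so that they stayed later.

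**Figure D3:**
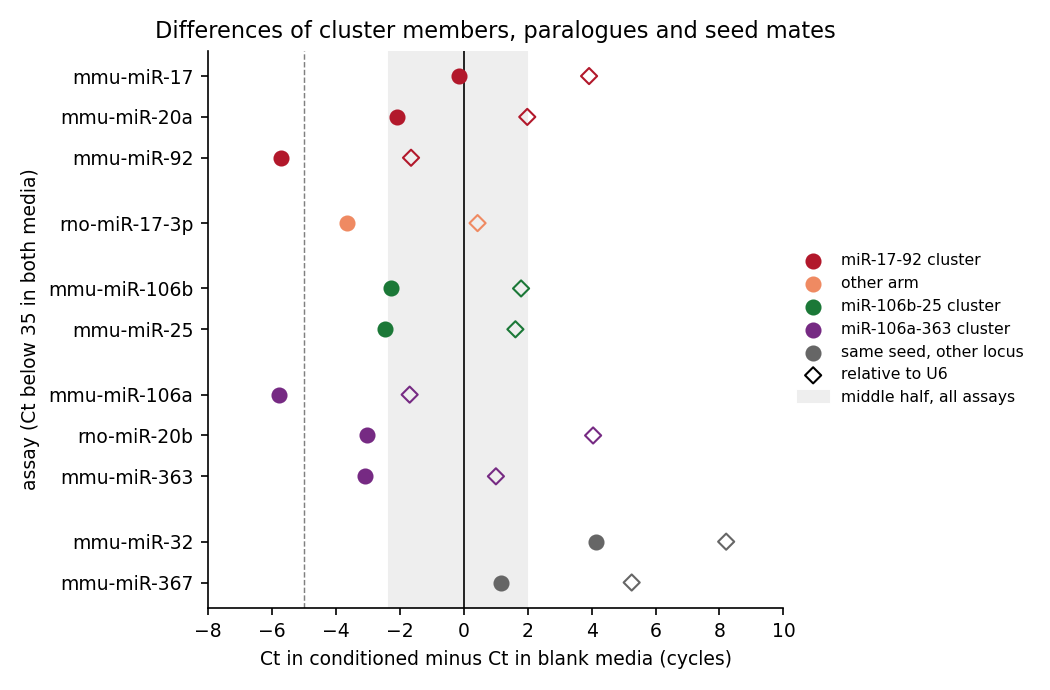
Ct in conditioned minus Ct in blank media, in cycles, for each assay of the 3 clusters and each seed mate detected in both media (filled circles), and the same relative to the mean of U6 of the card (open diamonds); the grey band spans the quartiles of all 176 assays and the dashed line marks -5 cycles. The 9 cluster assays lie between -5.77 and -0.16 and the seed mates at 1.17 and 4.13, but relative to U6 only mmu-miR-92 and mmu-miR-106a stay below 0. The U6 subtraction moves every assay of a card alike.

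The seed of miR-17 and miR-20a holds the bases AAGUGC, at bases 3 to 8, and the same 6 bases lie at bases 2 to 7 of several embryonic miRNAs of the miR-290 and miR-302 clusters, which are known as regulators of the embryonic stem cell cycle. Of 1679 mature mouse names in RefSeq, 0.95% hold AAGUGC within bases 2 to 8, on the strand of the mature sequence. Examples of the shifted seed, set beside that of miR-17, are these:
mmu-miR-17: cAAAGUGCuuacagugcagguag
mmu-miR-294: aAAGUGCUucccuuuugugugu
mmu-miR-295: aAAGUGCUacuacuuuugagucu

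With AAGUGC at bases 3 to 8 there were 7 mouse assays, the miR-17 seed family and mmu-miR-105, and the 4 detected in conditioned media were all detected in blank media too. With it at bases 2 to 7 there were 7 mouse assays matched to a RefSeq sequence, of which 5 were detected in conditioned media, 1 in blank media and 4 in conditioned media only, where the array had 37.3%, 29.1% and 13.9%. The 1 in blank media was mmu-miR-302b, with a Ct of 27.1 with embryos and 28.0 without. Of the 4 in conditioned media only, mmu-miR-294 had a Ct of 24.1 with embryos and of 37.6 without, beyond the limit of detection, and the others were undetermined without embryos. The earliest of the 7 in conditioned media was mmu-miR-295, at a Ct of 19.7, and it was undetermined in blank media. Assays of the same clusters that had no matched sequence were not counted. They were chosen after their values were seen: mmu-miR-292-3p crossed at 19.6 on card A and 23.0 on card B, and mmu-miR-291-3p at 33.0, all with embryos only, while mmu-miR-302a crossed at 21.0 with embryos and 22.2 without. No test of this difference between the groups was made, since assays are not replicates.

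Outside these families, the mouse assays whose pair of Ct values lay nearest to the medians of the 6 members, at 24.1 in conditioned media and 33.9 in blank media with undetermined wells set to 40, were mmu-miR-450b, mmu-miR-195, mmu-miR-542-3p, mmu-miR-743b-5p and mmu-miR-34b-3p. Their distances were 1.42 to 2.25 cycles over the 2 samples. Of these, mmu-miR-450b had a Ct of 23.5 and 32.6, and mmu-miR-195 had a Ct of 24.5 and 35.5. No single member had values like the medians, which combine wells with and without a Ct.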

How the data were processed

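The media lysates were reverse transcribed without RNA extraction, pre-amplified for 12 cycles and run on cards A and B of the TaqMan rodent array. Per the authors, the Ct was exported from the instrument software, and it was deposited without normalization for 768 wells per sample, of which 18 were controls and were left out of counts. Pre-amplification and the absence of dilution move Ct values earlier, and their error cannot be separated from that of the wells. The tables used here held Ct without the height of the fluorescence signal, by which the study also filtered, so that detection rests on a Ct below 35 alone. A deposited table of fold changes between the media, the authors' own comparison, was not used. The members, lists and limits were chosen with earlier results of these data known. The assays named were the members, the other arms of their hairpins, the paralogue clusters, sequences sharing a seed or AAGUGC, and the 5 nearest mouse assays. Arms were assigned to older assay names by knowledge of the nomenclature; leaving out the 5 nearest and the assays without a matched sequence named beside the AAGUGC group, 30 of 37 had a mature sequence in RefSeq. The counting was tested on simulated data. Calculations used matplotlib 3.10.9, numpy 2.4.6 and pandas 2.3.3 in Python 3.11.15.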

Additional observations from a re-analysis of the deposited data

How the results depend on the processing

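Ct limits of 32 and 38, any determined Ct, and an undetermined Ct required in blank media left the counts of detected members at 5 in conditioned media, 3 in blank media and 2 in conditioned media only, where each applied. Among the mouse-named major arms of the paralogue clusters together with mmu-miR-32 and mmu-miR-367, the number detected in conditioned media, 6 at a Ct below 35, was 5 at a Ct below 32 and 7 with any determined Ct. Relative to the mean of the U6 wells, the median difference of members detected in both media turned from -2.10 to 1.99 cycles, that of mmu-miR-17 from -0.16 to 3.92 and that of mmu-miR-20a to 1.99, while mmu-miR-92 moved from -5.73 to -1.65. Relative to the median of the U6 wells, which is less affected by 1 early well in blank media, they were 3.00 for the median and for mmu-miR-20a, 4.93 for mmu-miR-17 and -0.64 for mmu-miR-92. These shifts follow from the U6 difference on card A, -4.08 cycles by the mean and -5.10 by the median of its wells; the cause of that difference was not tested. Centring on the card median kept the sign of all 3 members, but mmu-miR-17 moved from -0.16 to -0.047 cycles. That value is smaller in size than any SD of the U6 wells on card A, so it shows no direction. No paired analysis was possible because each medium was 1 sample. Single wells limit every value, and a missing Ct in 1 well does not show absence.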
